A study of Mus musculus with 14 samples.

Results

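H19 and Igf2 are neighbouring imprinted genes on mouse distal chromosome 7, and they are the 2 members described here, of 37991 genes counted. They were taken by their Ensembl identifiers, H19 as ENSMUSG00000000031 and Igf2 as ENSMUSG00000048583, from both tables of the series. Polyadenylated RNA of mouse embryonic stem cells was sequenced in 14 libraries that form 7 groups with 2 libraries each. All groups are of the line J1, whose labelled background is 129S4/SvJae. Experiment 1 held Dnmt-TKO cells with PRT4165, Dnmt-TKO cells with the vehicle DMSO, wild-type cells with PRT4165, and wild-type cells with DMSO. Experiment 2 held untreated cells: Tet1-KO Dnmt-TKO, Dnmt-TKO, and wild type. Dnmt-TKO cells are triple knockouts of Dnmt1, Dnmt3a and Dnmt3b, which encode the DNA methyltransferases, the Tet1-KO Dnmt-TKO cells carry those same deletions and lack Tet1 besides, and PRT4165 inhibits the polycomb repressive complex PRC1. The labels name no clone, and no dose, duration or culture condition of the PRT4165 treatment is given in the sources used here. With 1 line labelled per genotype, genotype and line history cannot be told apart. Nothing in the labels says whether the 2 libraries of a group are separate cultures. Every p-value is therefore set against the spread between libraries, which may be technical.

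Imprinted genes are expressed from the allele of one parent, and the choice is carried by DNA methylation laid down in the germ line. Between Igf2 and H19 lies an imprinting control region that is methylated on the paternal chromosome. On the unmethylated maternal chromosome it binds CTCF, which insulates Igf2 from enhancers beyond H19, so that H19 is transcribed from the maternal allele and Igf2 from the paternal one. H19 encodes a long noncoding RNA that is abundant in embryonic and extraembryonic tissues and hosts the microRNA miR-675. Igf2 encodes insulin-like growth factor 2, a fetal growth factor that signals through Igf1r and Insr and is cleared by Igf2r. The counts used here are per gene and do not separate the parental alleles.

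Both members lie on the minus strand of chromosome 7 in the GENCODE annotation, with H19 as a lincRNA of 2460 exonic bases in 7 transcripts and Igf2 as a protein-coding gene of 5723 exonic bases in 9 transcripts. The microRNA is shown first because it lies inside an exon of H19 and is the product that this RNA is best known to carry. The sequences are those of RefSeq on GRCm38.p6, where the hairpin lies at chr7:142577064-142577147 on the minus strand. The arms of the hairpin that give the mature microRNAs are in capitals, and in the mature sequences the capitals mark the seed, bases 2 to 8.
miR-675 hairpin: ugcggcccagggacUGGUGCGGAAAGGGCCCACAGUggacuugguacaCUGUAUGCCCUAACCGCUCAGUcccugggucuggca
mmu-miR-675-5p: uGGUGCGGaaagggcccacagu
mmu-miR-675-3p: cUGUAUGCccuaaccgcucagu
The hairpin occupies bases 997 to 1080 of the longest annotated H19 transcript, of 2286 bases, inside its first exon of 1315 bases. It is counted as a gene of its own, Mir675, and had 0 counts in each of the 14 libraries. A read over the hairpin also lies in H19, and the sources used here do not say to which gene it went.

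RefSeq gives Igf2 4 start windows of 300 bases each, and they differ in CpG content, the dinucleotide that the deleted methyltransferases act on. The windows held 7, 24, 14 and 2 CpG, where the median of all 32851 windows in the table was 7. The window with the most CpG and the window with the fewest are shown for that contrast, with each CpG in capitals. The CpG-rich one is chr7:142658755-142659054 on the minus strand of GRCm38.p6 and the CpG-poor one is chr7:142666767-142667066.
Igf2 start window 2: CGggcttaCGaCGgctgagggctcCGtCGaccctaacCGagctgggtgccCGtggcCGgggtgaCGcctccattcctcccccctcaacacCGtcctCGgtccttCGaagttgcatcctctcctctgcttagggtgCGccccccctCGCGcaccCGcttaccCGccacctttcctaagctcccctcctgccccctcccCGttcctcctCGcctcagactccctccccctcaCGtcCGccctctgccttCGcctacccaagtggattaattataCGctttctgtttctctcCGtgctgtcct
Igf2 start window 4: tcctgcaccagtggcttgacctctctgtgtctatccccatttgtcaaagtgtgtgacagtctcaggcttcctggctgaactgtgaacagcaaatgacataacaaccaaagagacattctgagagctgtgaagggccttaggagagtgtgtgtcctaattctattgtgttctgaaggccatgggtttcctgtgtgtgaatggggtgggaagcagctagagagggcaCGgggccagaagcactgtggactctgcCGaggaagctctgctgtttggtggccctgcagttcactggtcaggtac
Window 2 had a GC content of 64.7%, and 20% of all windows held at least as many CpG. Window 4 had a GC content of 52.3%, and 85.9% of all windows held at least as many. Counts per gene do not say which of the start sites was used.

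The total count per library ran from 25588815 to 37399837 in experiment 1 and from 23354015 to 41844823 in experiment 2. The targeted genes went with the labels in both experiments. Dnmt1 averaged 128 ± 0.0613 CPM in Dnmt-TKO DMSO cells and 429 ± 6.97 CPM in wild-type DMSO cells (SD, n = 2 each), and Tet1 had 134 and 201 CPM in Tet1-KO Dnmt-TKO cells, against 791 and 742 CPM in untreated Dnmt-TKO cells. The labels do not say which part of each gene was deleted, and remaining exons can still be counted. All 10 embryonic stem cell markers were at or above 1 CPM in every group, and their changes between the groups are given with those of the other marker lists.

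H19 was near silent in wild-type cells and among the most abundant RNAs in the cells without the methyltransferases. The 2 Dnmt-TKO DMSO libraries held 42430 and 40843 H19 counts, against 15 and 18 in the wild-type DMSO libraries. As CPM, read counts relative to a library size that was scaled within each experiment by the TMM method, this was 1428 and 1367 CPM in Dnmt-TKO DMSO cells, against 0.536 and 0.560 CPM in wild-type DMSO cells. Both Dnmt-TKO libraries stood far above both wild-type libraries, with no overlap. By CPM, H19 ranked 39 and 43 among all genes in the Dnmt-TKO DMSO libraries, against 13514 and 13434 in the wild-type DMSO libraries. The fitted change was 11.30 on the log2 scale (SE 0.09, 95% interval 11.12 to 11.49), or 2529.5-fold, with an adjusted p of 2.1e-30 in edgeR's quasi-likelihood test. Calls were made at 0.05 on the adjusted p. The change ranked 1 in size among the 16711 genes tested, of which 69.0% were called, 34.8% as higher and 34.2% as lower in Dnmt-TKO cells. Scaled by library size alone, the median of all genes moved by 0.15 and 63.5% of the calls were higher ones, against 50.5% with TMM, and the change in H19 was 11.46.

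Igf2 moved little between the same libraries. Igf2 had 20.5 and 18.98 CPM in Dnmt-TKO DMSO cells, against 18.5 and 15.9 CPM in wild-type DMSO cells. The lower Dnmt-TKO library and the higher wild-type library lay within 1 CPM of each other, though the groups did not overlap. The fitted change was 0.21 (SE 0.08, 95% interval 0.04 to 0.38), 1.15-fold, with an edgeR adjusted p of 0.0280. The call rested on single libraries, since without wild-type DMSO replicate 2 the change was 0.07 (edgeR adjusted p = 0.508) and without Dnmt-TKO DMSO replicate 1 it was 0.15 (0.217). It was also lost without either wild-type PRT4165 library (0.0586 and 0.0575), without a filter on low counts (0.0735) and in DESeq2 (0.0688), and scaled by library size alone the change was 0.36.

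**Figure D1:**
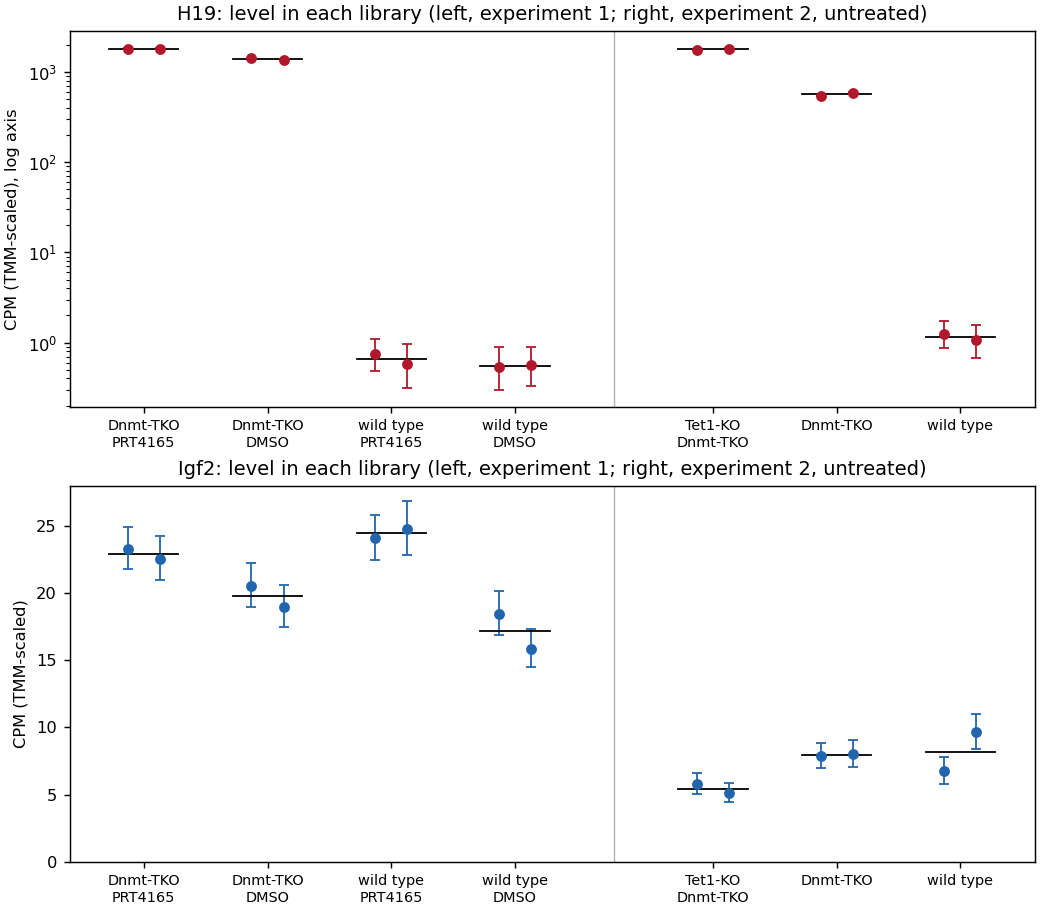
Level of H19 (upper panel, log axis) and Igf2 (lower panel, linear axis) in CPM in each of the 14 libraries. Points are libraries, vertical bars are 95% Poisson intervals that cover counting error only, and black lines are group means; H19 in cells without the methyltransferases sits at 550.0 CPM or more and in wild-type cells at 1.24 CPM or less, while Igf2 runs between 5.11 and 24.8 CPM.

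In untreated cells H19 again separated the genotypes, at a lower level in the Dnmt-TKO cells than under DMSO. H19 had 550.0 and 591 CPM in untreated Dnmt-TKO cells, from 19350 and 18301 counts, against 1.24 and 1.06 CPM in untreated wild-type cells, from 35 and 24 counts. The groups did not overlap. The change was 8.94, 492-fold, with an edgeR adjusted p of 1.1e-11. It ranked 15 in size among 16303 genes tested, of which 50.2% were called, 25.9% as higher and 24.3% as lower in Dnmt-TKO cells. Igf2 had 7.87 and 8.04 CPM in untreated Dnmt-TKO cells, against 6.74 and 9.66 CPM in untreated wild-type cells. Both Dnmt-TKO values fell between the wild-type ones. The Igf2 change of -0.04 (95% interval -0.45 to 0.38) did not pass the test (edgeR adjusted p = 0.885). The interval leaves room for either sign, and scaled by library size alone the value was 0.02.

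The size of the genotype effect on H19 differed between the experiments. In a fit of all 14 libraries the genotype effect without treatment minus that under DMSO was -2.33 for H19, with an edgeR adjusted p of 1.4e-05. Its size depends on the low H19 counts in both wild-type groups. Of 17246 genes tested for this difference 12.9% were called, 7.50% as higher and 5.42% as lower. Of the calls 58.1% were thus higher ones with TMM, and 27.1% were with library size alone, where the median of all genes moved by -0.13 and H19 stood at -2.46. In CPM scaled within each experiment, both untreated Dnmt-TKO libraries were below both Dnmt-TKO DMSO libraries and both untreated wild-type libraries were above both with DMSO. For Igf2 the same difference was -0.21 (SE 0.19) and did not pass the test (edgeR adjusted p = 0.525). Treatment with DMSO and the experiment cannot be told apart here.

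The cells that lacked Tet1 as well had more H19 than the Dnmt-TKO cells. H19 had 1774 and 1822 CPM in Tet1-KO Dnmt-TKO cells, against 550.0 and 591 CPM in untreated Dnmt-TKO cells. Both Tet1-KO libraries lay far above both Dnmt-TKO libraries. The change was 1.66 (SE 0.10, 95% interval 1.44 to 1.88), 3.15-fold, with an edgeR adjusted p of 2.9e-06, where 22.0% of genes were called, 11.6% as higher and 10.4% as lower. With library size alone 40.6% of the calls were higher ones, against 52.9% with TMM, and the change in H19 was 1.59. Against untreated wild-type cells the H19 change was 10.60, 1552-fold, with an edgeR adjusted p of 2.4e-12. In that comparison 50.7% of genes were called, 26.3% as higher and 24.4% as lower.

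Among untreated cells Igf2 was lowest in the Tet1-KO Dnmt-TKO group, where H19 was highest. Igf2 had 5.77 and 5.11 CPM there, against 7.87 and 8.04 CPM in untreated Dnmt-TKO cells and 6.74 and 9.66 CPM in untreated wild-type cells. Both Tet1-KO values lay below all 4 of the others. Against Dnmt-TKO cells the change was -0.55 (SE 0.19, 95% interval -0.96 to -0.13) and did not pass the test (edgeR adjusted p = 0.0585), although it was called in 6 of 12 alternative settings, among them without either untreated wild-type library, with adjusted p between 0.0272 and 0.220 over all of them. Against wild-type cells the change was -0.59 (SE 0.19, 95% interval -1.01 to -0.17) and Igf2 was called lower (edgeR adjusted p = 0.0235). That call was lost without wild-type replicate 2 (-0.31, adjusted p = 0.228) and without Tet1-KO Dnmt-TKO replicate 2 (-0.50, adjusted p = 0.114).

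Igf2 was higher with PRT4165 than with DMSO in wild-type cells. Igf2 had 24.1 and 24.8 CPM in wild-type PRT4165 cells, against 18.5 and 15.9 CPM in wild-type DMSO cells. The groups were more than 5 CPM apart at their nearest libraries. The change was 0.51 (SE 0.08, 95% interval 0.35 to 0.68), 1.43-fold, with an edgeR adjusted p of 1.8e-05, and it kept its direction and its call in 14 of 14 alternatives. In this comparison 37.6% of genes were called, 19% as higher and 18.7% as lower. H19 stayed close to the counting floor with either agent, at 26 and 14 counts in wild-type PRT4165 cells and 15 and 18 counts in wild-type DMSO cells. Those counts correspond to 0.742 and 0.571 CPM with PRT4165, against 0.536 and 0.560 CPM with DMSO. The H19 change of 0.29 (95% interval -0.31 to 0.89) was not detectable at this depth (edgeR adjusted p = 0.524).

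In Dnmt-TKO cells both members were higher with PRT4165 than with DMSO. H19 had 1829 and 1821 CPM in Dnmt-TKO PRT4165 cells, against 1428 and 1367 CPM in Dnmt-TKO DMSO cells. The groups were separated by several times the spread within either. The change was 0.38 (SE 0.04, 95% interval 0.29 to 0.47), 1.31-fold, with an edgeR adjusted p of 2.0e-07, called in 14 of 14 alternatives, where 39.5% of genes were called, 19.9% as higher and 19.6% as lower. Igf2 had 23.3 and 22.6 CPM in Dnmt-TKO PRT4165 cells, against 20.5 and 18.98 CPM in Dnmt-TKO DMSO cells. The groups did not overlap. Its change of 0.22 (SE 0.08, 95% interval 0.06 to 0.38) had an edgeR adjusted p of 0.0299, was lost with DESeq2 (0.103), and was also lost without either library of either group, at an adjusted p between 0.0602 and 0.316.

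Whether the inhibitor acted differently on the members in the 2 genotypes was tested as an interaction. For H19 the effect of PRT4165 in Dnmt-TKO cells minus that in wild-type cells was 0.10 (SE 0.30, 95% interval -0.53 to 0.72, edgeR adjusted p = 0.928), an interval set by the low counts in wild-type cells. For Igf2 it was -0.30 (SE 0.11, 95% interval -0.53 to -0.07), which did not pass the test (edgeR adjusted p = 0.143) and did so only without wild-type DMSO replicate 1 (-0.41, adjusted p = 0.0323). Of all genes 3.89% were called in the interaction, 1.77% as higher and 2.12% as lower. Dnmt-TKO PRT4165 cells against wild-type DMSO cells, the comparison of both perturbations with neither, gave 11.69 for H19 and 0.42 (SE 0.08) for Igf2. Both were called higher, H19 at an edgeR adjusted p of 8.9e-31 and Igf2 at 4.0e-05, where 76.2% of genes were called, 39.6% as higher and 36.7% as lower.

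**Figure D2:**
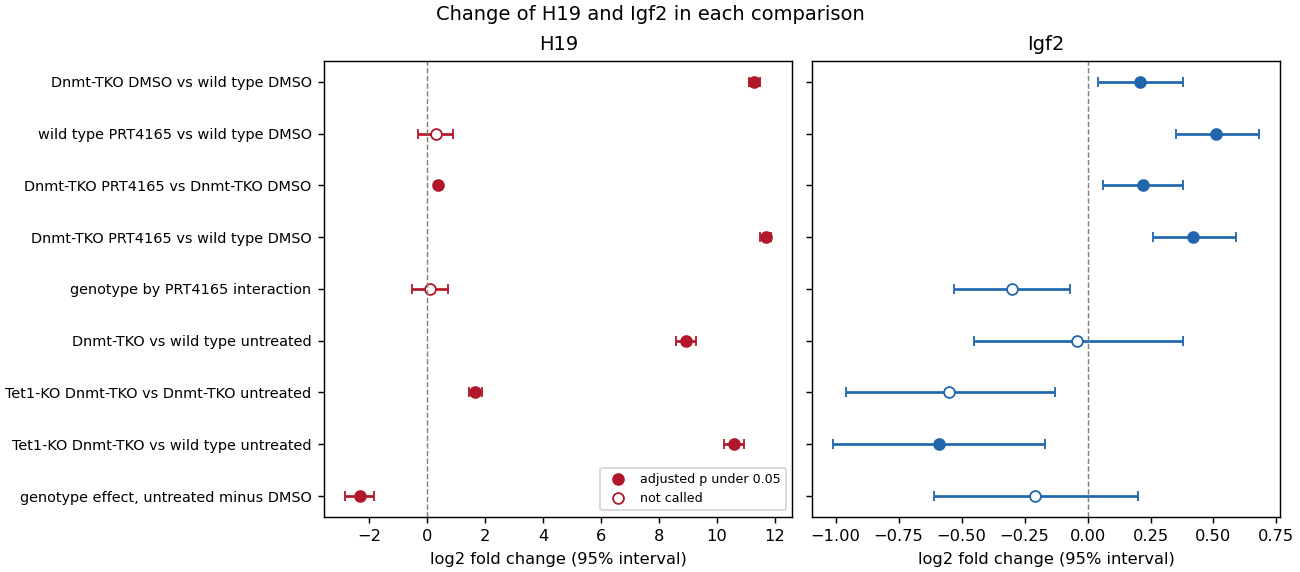
Fitted log2 fold changes of H19 (left) and Igf2 (right, with its own scale) in each comparison, with 95% intervals. The intervals of H19 against wild-type cells, and of its difference between the experiments, are too narrow because wild-type counts were low. Filled points were called at an adjusted p under 0.05 and open points were not; the H19 changes against wild-type cells lie between 8.94 and 11.69, and every Igf2 change lies between -0.59 and 0.51.

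Over the 7 groups, H19 averaged 1825 ± 5.40 CPM in Dnmt-TKO PRT4165 cells, 1798 ± 33.7 in Tet1-KO Dnmt-TKO cells, 1398 ± 43.0 in Dnmt-TKO DMSO cells and 570.4 ± 28.8 in untreated Dnmt-TKO cells (SD, n = 2 each). It averaged 1.15 ± 0.125 CPM in untreated wild-type cells, 0.656 ± 0.121 in wild-type PRT4165 cells and 0.548 ± 0.0169 in wild-type DMSO cells. Libraries of the first 2 groups in this order overlapped, and the last 2 means differed by less than the SD of wild-type PRT4165 cells. The experiments were scaled separately, so levels set across them were not tested. Igf2 averaged 24.4 ± 0.485 CPM in wild-type PRT4165 cells, 22.9 ± 0.531 in Dnmt-TKO PRT4165 cells, 19.8 ± 1.10 in Dnmt-TKO DMSO cells and 17.2 ± 1.85 in wild-type DMSO cells. In untreated cells it averaged 8.20 ± 2.06 CPM in wild-type, 7.96 ± 0.116 in Dnmt-TKO and 5.44 ± 0.471 in Tet1-KO Dnmt-TKO cells. All 8 libraries of experiment 1 had more Igf2 than any of the 6 of experiment 2, whatever the genotype. H19 was instead higher in every group without the methyltransferases than in any wild-type group of either experiment. In the order of Igf2, untreated Dnmt-TKO and wild-type libraries overlapped, and those of the other neighbouring groups did not.

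Since both members are read from the same library, their ratio per kilobase of exon does not depend on how the libraries are scaled. H19 was 162 and 168 times Igf2 in Dnmt-TKO DMSO cells, against 0.0675 and 0.0821 times in wild-type DMSO cells. With PRT4165 the ratio was 183 and 188 in Dnmt-TKO cells, against 0.0716 and 0.0536 in wild-type cells. All 4 Dnmt-TKO libraries of experiment 1 therefore held more H19 than Igf2 per kilobase and all 4 wild-type libraries held less. The ratio was 715 and 830 in Tet1-KO Dnmt-TKO cells, 163 and 171 in untreated Dnmt-TKO cells and 0.426 and 0.255 in untreated wild-type cells. Untreated Dnmt-TKO cells and Dnmt-TKO DMSO cells overlapped in the ratio although their H19 levels did not. With 2 libraries against 2, an exact two-sided permutation test cannot go below p = 0.333, so the ratio was not tested.

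**Figure D3:**
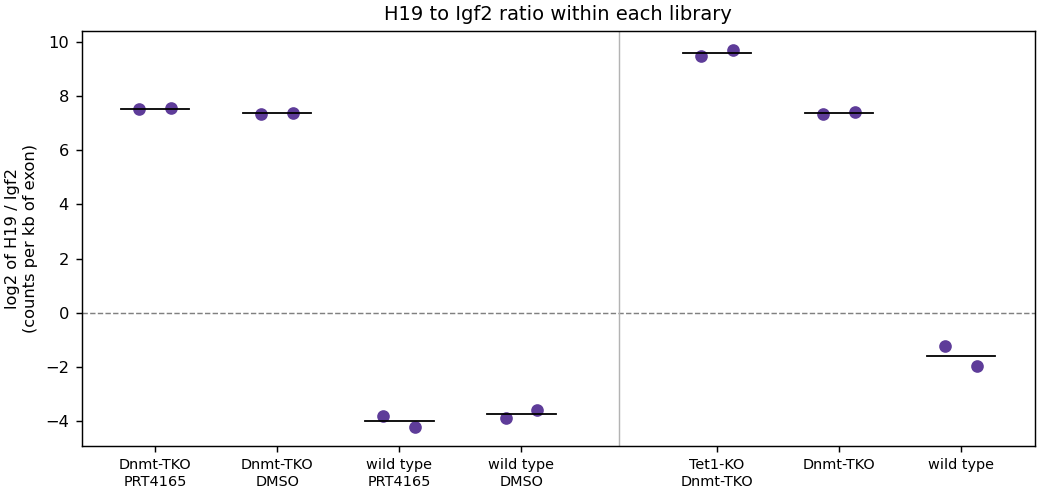
Ratio of H19 to Igf2 counts per kilobase of exon on the log2 scale in each library (points), with group means as black lines and equality as a dashed line. Wild-type libraries lie between -4.22 and -1.23, Dnmt-TKO libraries between 7.34 and 7.55, and the Tet1-KO Dnmt-TKO libraries at 9.48 and 9.70.

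Igf2os, an antisense RNA that shares 98 exonic bases with Igf2, averaged 1.53 ± 0.0295 CPM in Dnmt-TKO DMSO cells and 1.27 ± 0.134 CPM in wild-type DMSO cells (SD, n = 2 each) and was not called (0.26, edgeR adjusted p = 0.363). The sources used here do not state whether the counting used strand, so reads of Igf2 and Igf2os in those bases cannot be told apart. Mir483, a microRNA gene in an Igf2 intron, had 0 counts in all 14 libraries. Gm27483 and Gm27786, on the strand opposite H19, share 71 and 70 of its exonic bases, and Gm49394 shares 3596 with Igf2; none of them is counted in the tables. Ins2, the insulin gene next to Igf2, had 1 count in all 14 libraries together, and Nctc1, a noncoding RNA beyond H19, also had 1.

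Between Dnmt-TKO and wild-type DMSO cells the tested genes around the members changed in both directions. H19 had the largest change of all genes tested, so none of them could exceed it. Among the 49 other counted genes within 25 positions on each side of H19, 11 had 0 counts in every library, and 24 were tested in experiment 1. Of these 24, 9 were higher and 9 lower in Dnmt-TKO DMSO cells, where 34.8% of all genes were higher and 34.2% lower. Over both sides together the shares are thus near those of all genes, with a median of -0.04, beside 0.01 for all genes. The sides differed, however. All 9 lower genes lay on the Igf2 side. The 9 higher ones, except Th and Ascl2, lay on the H19 side, among them Dusp8 (5.08, SE 0.26) and Ctsd (0.43, SE 0.04). In untreated cells the 9 lower genes again lay on the Igf2 side, and the 6 higher ones, except Ascl2, on the H19 side. Mrpl23, a mitochondrial ribosomal protein gene and the closest tested gene on the H19 side, had 23.1 and 21.0 CPM in Dnmt-TKO DMSO cells, against 23.3 and 21.5 CPM in wild-type DMSO cells. Its change of -0.03 was not called (edgeR adjusted p = 0.783), and it was not called in any other comparison. Over all 1270 tested genes of chromosome 7 the median change was 0.04.

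From a list of 26 genes of distal chromosome 7, 25 were counted and 21 tested, of which 9 were higher and 8 lower in Dnmt-TKO DMSO cells (median -0.03, beside 0.01 for all genes, of which 34.8% were higher and 34.2% lower). These shares too are near those of all genes, and again all 8 lower ones lay on the Igf2 side. Ascl2, a maternally expressed trophoblast transcription factor, was higher by 2.65 (SE 0.14), at 15.3 ± 0.841 CPM in Dnmt-TKO and 2.45 ± 0.522 CPM in wild-type DMSO cells. The fast skeletal troponin gene Tnnt3 was higher by 4.38 and the leukocyte gene Lsp1 by 5.19, both from under 0.2 CPM in wild-type DMSO cells. Cd81, a tetraspanin, was lower by -0.74 (SE 0.04), and Nap1l4, a histone chaperone, by -0.64 (SE 0.04). Cdkn1c, a maternally expressed inhibitor of the cell cycle, was lower by -0.32 (SE 0.05) with DMSO and by -1.92 (SE 0.21) in untreated cells. In untreated cells 5 of the 21 tested were higher and 9 lower (median -0.10, beside -0.00 for all genes, of which 25.9% were higher and 24.3% lower). Syt8 had 0 counts in both wild-type groups compared, and Tnni2 and Tnnt3 in untreated wild-type cells. With these set at a floor of 3 counts over the group, their changes were 2.58 to 4.65. That is still above the medians, which therefore could not move.

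**Figure D4:**
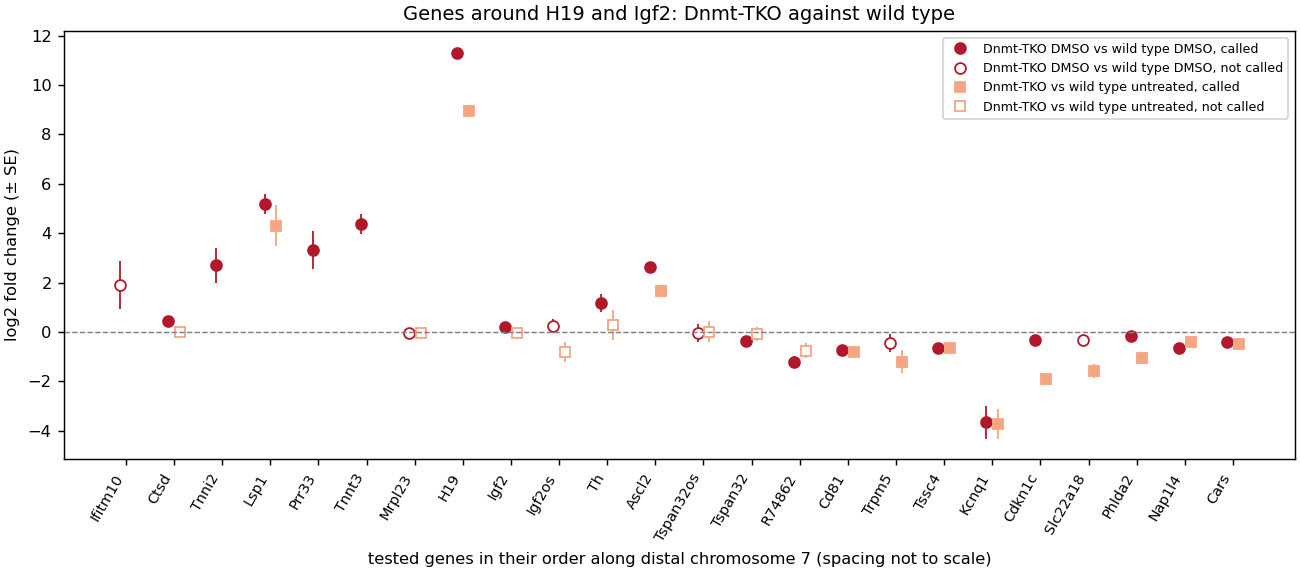
Log2 fold change (± SE) of tested genes in their order along distal chromosome 7, for Dnmt-TKO against wild-type cells with DMSO (circles) and untreated (squares); spacing is not to scale, filled symbols were called, and values against a wild-type group at 0 counts are left out. Dusp8, farther out on the H19 side, is not drawn (5.08 with DMSO and 4.11 untreated, both called). The SE drawn is too small for large changes from near-silent wild-type levels, that of H19 among them. H19 stands at 11.30 and 8.94, while Mrpl23 on one side and Igf2 on the other lie at -0.03 and 0.21 with DMSO.

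Factors that set or read the imprint moved in both directions. Of 19 such genes tested, 5 were higher and 11 lower in Dnmt-TKO DMSO cells (median -0.13, beside 0.01 for all genes, of which 34.8% were higher and 34.2% lower), and the 3 targeted methyltransferases are among the 11. Ctcf, whose product binds the unmethylated control region, had 195 ± 5.12 CPM in Dnmt-TKO DMSO cells and 246 ± 2.35 CPM in wild-type DMSO cells (-0.33, SE 0.05). Its germline paralogue Ctcfl had 58.8 ± 1.51 CPM in Dnmt-TKO DMSO cells and 1.04 ± 0.149 CPM in wild-type DMSO cells (5.83, SE 0.10). Ctcf was thus lower and Ctcfl higher in the Dnmt-TKO DMSO cells. Zfp57, a zinc finger protein that holds methylation at imprints, was lower by -0.91 (SE 0.04), and Dppa3, which protects imprints in the zygote, was higher by 4.47 (SE 0.16). Dnmt3l, a partner of the de novo methyltransferases that has no catalytic activity of its own, was higher by 2.44 (SE 0.05). Ctcf shares 2.35% of its exonic bases with a gene on the other strand and Ctcfl 5.32%.

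In untreated cells the same 19 genes gave 5 higher and 7 lower (median 0.02, beside -0.00 for all genes, of which 25.9% were higher and 24.3% lower). Ctcfl was higher by 5.12 (SE 0.16) and Zfp57 lower by -1.10 (SE 0.10), while Ctcf was at -0.03 (edgeR adjusted p = 0.839). In Tet1-KO Dnmt-TKO against Dnmt-TKO cells 1 of the 19 was higher and 4 were lower (median -0.12, beside 0.00 for all genes, of which 11.6% were higher and 10.4% lower). Ctcfl was lower by -3.12 (SE 0.13) and Dppa3 higher by 1.10 (SE 0.15). Ctcfl and H19 therefore moved together between Dnmt-TKO and wild-type cells and in opposite directions between Tet1-KO Dnmt-TKO and Dnmt-TKO cells.

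Among the ligands, receptors and adaptors of insulin-like growth factor signalling, 11 of 13 were tested, and 7 were higher and 3 lower in Dnmt-TKO DMSO cells (median 1.11, beside 0.01 for all genes, of which 34.8% were higher and 34.2% lower). Igf2r, the receptor that takes Igf2 to the lysosome and is itself imprinted, had 150 ± 7.84 CPM in Dnmt-TKO DMSO cells and 102 ± 0.193 CPM in wild-type DMSO cells (0.56, SE 0.05). Igf1r, the receptor through which Igf2 signals, had 9.35 ± 0.178 CPM in Dnmt-TKO DMSO cells and 13.7 ± 0.661 CPM in wild-type DMSO cells (-0.55, SE 0.09). The clearing receptor was thus higher and the signalling receptor lower, and the untreated cells had the same directions, at 0.61 (SE 0.10) for Igf2r and -0.85 (SE 0.18) for Igf1r. In Tet1-KO Dnmt-TKO against Dnmt-TKO cells the directions were the opposite, with Igf2r at -0.35 (SE 0.09) and Igf1r at 0.75 (SE 0.18), all of these called. Grb10, an imprinted adaptor that dampens the receptors, was higher by 1.11 (SE 0.06) with DMSO and its relative Grb14 by 2.33 (SE 0.27), and Shc1, an adaptor that links receptors to Ras, was lower by -1.01 (SE 0.05).

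Of the 12 binding proteins of the growth factors and their proteases 9 were tested, with 4 higher and 1 lower in Dnmt-TKO DMSO cells (median 0.40, beside 0.01 for all genes, with the same 34.8% higher and 34.2% lower). Igfbp3, the main carrier in serum, was higher by 1.71 (SE 0.08), and Igfbp5 by 2.78 (SE 0.40). Of 7 proteins that bind Igf2 or H19 RNA, 5 were higher and 2 lower (median 0.37), read against those same values for all genes. Igf2bp2 was higher by 1.01 (SE 0.05) and Igf2bp1 by 0.37 (SE 0.05), whereas Igf2bp3, of the same family, was lower by -0.62 (SE 0.06), with 18.7% of its exonic bases shared with Malsu1 on the other strand. Lin28b, which binds let-7 precursors and is a partner of this group, was higher by 1.34 (SE 0.07).

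H19 belongs to a set of imprinted genes that are co-expressed in mouse tissues, and 13 of a list of 14 were tested. In Dnmt-TKO DMSO cells 11 were higher and 2 lower (median 1.11, beside 0.01 for all genes, of which 34.8% were higher and 34.2% lower). Plagl1, a zinc finger factor known in the mouse to bind enhancers shared by H19 and Igf2, had 887 and 879 counts in Dnmt-TKO DMSO cells, against 1 and 3 in wild-type DMSO cells. This was 29.6 ± 0.302 CPM in Dnmt-TKO and 0.0645 ± 0.0407 CPM in wild-type cells, a change of 8.72. Its size is uncertain with so few wild-type counts. Peg3, a paternally expressed zinc finger gene, was higher by 3.76 (SE 0.06), Meg3, a maternally expressed noncoding RNA, by 1.60 (SE 0.07), and Mest, a paternally expressed hydrolase gene, by 1.11 (SE 0.05). Mest shares 23.1% of its exonic bases with Copg2 on the other strand and Gnas 13.1% with Gm20721, so part of their counts may belong to those genes. Cdkn1c, given above, and Gnas (-0.55, SE 0.11) were the lower ones.

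Untreated, 9 of these 13 genes were higher and 2 lower in Dnmt-TKO cells (median 1.34, beside -0.00 for all genes, of which 25.9% were higher and 24.3% lower). Plagl1 stood at 6.79, again from few wild-type counts. In Tet1-KO Dnmt-TKO against Dnmt-TKO cells 2 were higher and 4 lower (median -0.33, beside 0.00 for all genes, of which 11.6% were higher and 10.4% lower). Plagl1, with 20.4 and 31.7 CPM in Tet1-KO Dnmt-TKO cells and 14.4 and 16.8 CPM in Dnmt-TKO cells, was called higher (0.74, SE 0.19), as H19 was, while Meg3 (-0.80, SE 0.19) and Mest (-0.50, SE 0.12) were called lower. With PRT4165 Plagl1 was higher in Dnmt-TKO cells by 0.40 (SE 0.07) and in wild-type cells by 2.04 (SE 0.63), the second from 11 and 6 counts with PRT4165 against 1 and 3 with DMSO. In wild-type cells 7 of the 13 were higher and 4 lower with PRT4165 (median 0.23, beside 0.01 for all genes, of which 19% were higher and 18.7% lower). In Dnmt-TKO cells 6 were higher and 2 lower (median 0.11, beside -0.00 for all genes, of which 19.9% were higher and 19.6% lower).

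Other cell types also express H19, so their markers were read in the same libraries. The summed level of 12 trophoblast markers was 272 to 273 CPM in Dnmt-TKO DMSO cells and 22.3 to 25.2 CPM in wild-type DMSO cells, and 11 of the 12 were called higher, where 34.8% of all genes were. Krt7, a keratin of trophoblast, had 62.9 ± 0.570 CPM in Dnmt-TKO and 2.12 ± 0.231 CPM in wild-type DMSO cells (4.89, SE 0.10), and no marker of the list was at 0 in Dnmt-TKO cells, where 4 were at 0 in wild-type DMSO cells. The group means of this sum and of H19 had the same order within each experiment, though H19 did not differ detectably between the wild-type groups of experiment 1. Tfap2c was the largest part of the sum in every group, at 99.5 CPM in Dnmt-TKO DMSO and 11.7 CPM in wild-type DMSO cells. The sum was 365 to 374 CPM in Dnmt-TKO PRT4165 and 47.2 to 50.03 CPM in wild-type PRT4165 cells. It was 217 to 237 CPM in Tet1-KO Dnmt-TKO, 85.5 to 102 CPM in untreated Dnmt-TKO and 29.2 to 31.8 CPM in untreated wild-type cells. Its part in the H19 result was not tested, and in bulk RNA more cells of a type and more RNA per cell cannot be told apart.

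The fibroblast sum had that order too, over a smaller range. The 12 fibroblast markers summed to 41.7 to 42.3 CPM in Dnmt-TKO DMSO cells and 29.1 to 30.9 CPM in wild-type DMSO cells, with 1 of them at 0 in both Dnmt-TKO libraries and 5 at 0 in both wild-type libraries. Col5a1, a fibrillar collagen gene, was the largest part of either sum. Of 9 tested markers 6 were higher and 2 lower, where 34.8% of all genes were higher and 34.2% lower. The fibroblast sum was 42.4 to 43.8 CPM in Dnmt-TKO PRT4165, 32.3 to 33.2 CPM in wild-type PRT4165, 52.1 to 59.9 CPM in Tet1-KO Dnmt-TKO, 35.9 to 40.2 CPM in untreated Dnmt-TKO and 29.8 to 32.8 CPM in untreated wild-type cells. In Tet1-KO Dnmt-TKO against Dnmt-TKO cells 1 of 7 tested was higher and 3 lower, where 11.6% of all genes were higher and 10.4% lower. There the sum, mostly Col5a1, and the count differ in direction. The 12 endoderm markers summed to 158 to 170 CPM in Dnmt-TKO DMSO cells and 237 to 255 CPM in wild-type DMSO cells. Of 9 tested 1 was higher and 7 lower, where 34.8% of all genes were higher and 34.2% lower. In experiment 2 the endoderm sum differed between libraries of the same group, at 137 to 320 CPM in Tet1-KO Dnmt-TKO, 75.2 to 124 CPM in Dnmt-TKO and 171 to 317 CPM in wild-type cells. There 6 of 8 tested were higher in Tet1-KO Dnmt-TKO than in Dnmt-TKO cells, where 11.6% of all genes were higher. Of the same 8, 7 were lower in Dnmt-TKO than in wild-type cells, where 24.3% of all genes were lower. The 10 mesoderm and muscle markers summed to 19.1 to 19.5 CPM in Dnmt-TKO DMSO cells and 56.4 to 60.01 CPM in wild-type DMSO cells. Des, a muscle intermediate filament gene, made up most of that difference, at 11.5 ± 0.471 CPM in Dnmt-TKO and 53.8 ± 1.79 CPM in wild-type DMSO cells, and it was the 1 marker called lower of 7 tested. The other called markers, Kdr (1.24, SE 0.19) and Hand2, were higher. The median of the 7 was 0.35, beside 0.01 for all genes, of which 34.8% were higher and 34.2% lower. Afp, which shares a repressor with H19 in mouse liver, was at 0.336 ± 0.0937 CPM in Dnmt-TKO and 0.0179 ± 0.0253 CPM in wild-type DMSO cells. The part of these 3 lists in the H19 result was not tested either.

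The embryonic stem cell markers were mostly lower in Dnmt-TKO than in wild-type cells, and with PRT4165 than with DMSO. The 10 markers summed to 3361 to 3536 CPM in Dnmt-TKO PRT4165, 4504 to 4511 CPM in Dnmt-TKO DMSO, 5064 to 5277 CPM in wild-type PRT4165 and 5984 to 6080 CPM in wild-type DMSO cells. In experiment 2 they summed to 6608 to 6771 CPM in Tet1-KO Dnmt-TKO, 5949 to 5989 CPM in Dnmt-TKO and 7502 to 8093 CPM in wild-type cells. In Dnmt-TKO against wild-type DMSO cells 8 of the 10 were lower and 1 higher (median -0.44, beside 0.01 for all genes, of which 34.2% were lower and 34.8% higher). Untreated, 7 were lower and 1 higher (median -0.41, where 24.3% of all genes were lower). With PRT4165 7 were lower and 0 higher in Dnmt-TKO cells (median -0.39, where 19.6% of all genes were lower) and likewise in wild-type cells (median -0.19, where 18.7% were lower). In Tet1-KO Dnmt-TKO against Dnmt-TKO cells, where H19 was higher too, 1 was lower and 2 were higher. The median there was -0.00, and 10.4% of all genes were lower and 11.6% higher. The part of these markers in the H19 and Igf2 results was not tested.

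**Figure D5:**
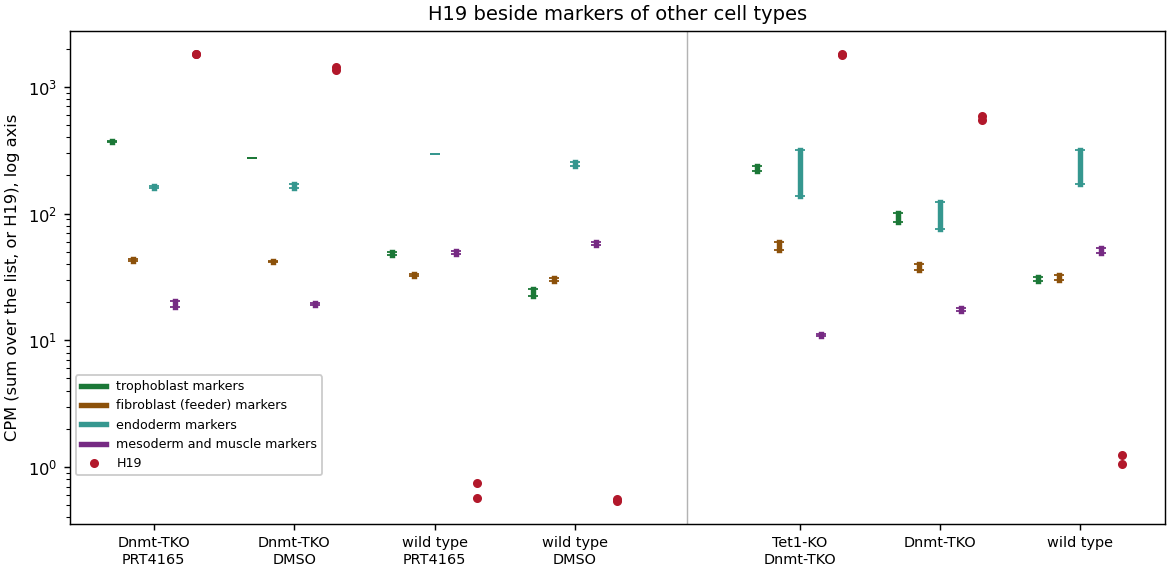
Summed CPM of 4 marker lists (bars span both libraries of a group) and the level of H19 in each library (points), on a log axis. By group mean, H19 and the trophoblast sum are both lowest in wild-type DMSO cells and highest in Dnmt-TKO PRT4165 cells. The H19 difference between the wild-type groups of experiment 1 did not pass the test. The endoderm sum in experiment 1 is 158 to 170 CPM in Dnmt-TKO DMSO cells and 237 to 255 CPM in wild-type DMSO cells.

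The genes most like each member were sought among 14331 genes by the root mean square difference of log2(CPM + 1), centred within each experiment, over the 14 libraries. For H19 the closest 3 were Ddx3y (2.09), Nrk (2.23) and Gm14149 (2.27), with Pearson r between 0.992 and 0.993. None of these genes was as far apart between the genotypes as H19 was in DMSO cells, where H19 had the largest change of all genes tested. The order depended on the pseudocount: with 0.25 in place of 1, Plagl1 (2.09, r = 0.997) came first and Ddx3y (2.24) second, and Nrk was not among the closest 5. Ddx3y, a gene of the Y chromosome, averaged 102 ± 2.90 CPM in Dnmt-TKO DMSO cells and 1.42 ± 0.115 CPM in wild-type DMSO cells. For this difference too, genotype and line history cannot be told apart. For Igf2 the closest were Snrnp48 (0.11), Esco2 (0.11), Cybb (0.13), Ccdc28a (0.13) and Csrnp2 (0.13), with r between 0.815 and 0.881. With 0.25, Rpain (0.15) took the place of Cybb among the closest 5. These correlations are descriptions over libraries that share lines and experiments, and they carry no test.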

How the data were processed

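Polyadenylated RNA was measured in 14 libraries. The deposited values are raw counts of reads per gene, 1 table for each experiment, with no normalization by the authors. The build mm9, HTSeq 0.5.3p9, TopHat2 2.0.2 and Bowtie 0.12.8 are named in the submitters' processing notes; no strand setting or annotation release is given in the sources used here. Symbols were found for 32919 of 37991 identifiers in a GENCODE annotation of a later build, which also gave lengths and gene order. Identifiers without a symbol held 0.482% to 0.85% of the counts.

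Each experiment was fitted as a whole in edgeR 4.0.16 (R 4.3.3, limma 3.58.1) with filterByExpr (minimum count 10, minimum total 15), TMM factors and a two-sided quasi-likelihood F-test without covariates. All 14 libraries were fitted together for the difference between experiments. Benjamini-Hochberg adjustment ran over all genes of a fit, and a call needs an adjusted p under 0.05. Poisson intervals cover counting error only, since PCR copies are not separate molecules. The fit was tested on simulated data.

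The members and gene lists were chosen with earlier results of these data known. From each list up to 4 called genes per direction with the smallest p were eligible to be named, besides neighbours and receptors of the members; Dnmt1, Tet1, Syt8, Tnni2, Col5a1, Krt7, Des, Ctcf and the genes most alike the members were named for checks or for their role. Not every gene eligible by this rule is named or reported here. Alternatives were DESeq2 1.42.0, other scalings, no filter, a replicate block, only the groups compared, and leaving out each library.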

Additional observations from a re-analysis of the deposited data

Results flagged for a closer look

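The genotype effect on H19 differed between the experiments when that difference was tested over all 14 libraries. It was lower without treatment than under DMSO by -2.33 on the log2 scale (edgeR adjusted p = 1.4e-05). H19 averaged 570.4 ± 28.8 CPM in untreated Dnmt-TKO and 1.15 ± 0.125 CPM in untreated wild-type cells, against 1398 ± 43.0 CPM in Dnmt-TKO DMSO and 0.548 ± 0.0169 CPM in wild-type DMSO cells (SD, n = 2 each). Under 19 alternatives the difference lay between -2.46 and -2.20 and was called in each. The summed trophoblast markers were 85.5 to 102 CPM in untreated Dnmt-TKO and 272 to 273 CPM in Dnmt-TKO DMSO cells, and their part in the difference was not tested.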

How the results depend on the processing

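Every H19 result stayed on its side of the threshold and kept its direction in every alternative run, apart from the sign of its uncalled interaction (-0.05 to 0.33). Igf2 was less stable. Its change in Dnmt-TKO against wild-type DMSO cells was 0.22 with DESeq2 (adjusted p = 0.0688), 0.19 without the filter (0.0735) and 0.07 to 0.30 with a library left out. Its change in Dnmt-TKO PRT4165 against DMSO cells was 0.22 with DESeq2 (0.103) and 0.14 to 0.26 with a library left out. In Tet1-KO Dnmt-TKO against Dnmt-TKO cells Igf2 was called lower with library size only (-0.62), without the filter (-0.54), with only the groups compared (-0.55) and with the replicate block (-0.55, edgeR adjusted p = 0.0307), and lay at -0.64 to -0.46 with a library left out. Against wild-type cells that range was -0.84 to -0.31, and for the interaction -0.41 to -0.19. Same-numbered replicates deviated with correlations of -0.04 to 0.05 in experiment 1 and 0.15 to 0.35 in experiment 2, which with 2 numbers does not establish pairing.

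With a library left out, the number of genes called higher ran from 2209 to 3734 for PRT4165 in Dnmt-TKO cells. It ran from 808 to 2460 higher and 763 to 2050 lower for Tet1-KO Dnmt-TKO against Dnmt-TKO, 118 to 421 higher and 186 to 492 lower for the interaction, and 535 to 2073 higher and 445 to 1226 lower for the difference between experiments. DESeq2 gave 218 lower in the interaction, and library size only gave 490 higher in the difference between experiments. With the longest transcript in place of the exon union, the log2 ratio of H19 to Igf2 was 7.36 in Dnmt-TKO PRT4165, 7.19 in Dnmt-TKO DMSO, 9.42 in Tet1-KO Dnmt-TKO and 7.21 in untreated Dnmt-TKO cells. Cdkn1c in Dnmt-TKO PRT4165 against wild-type DMSO cells turned to 0.12 (adjusted p = 0.0280) with library size only. Of 8059 values of other named genes 7709 kept their call, or stayed uncalled whatever their direction. Where no value shows a cause, the cause was not tested. Low H19 counts in wild-type cells limit what can be seen there.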
